A study of Mus musculus with 24 samples.

Results

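The 8 genes described here encode surface proteins that checkpoint therapy targets or is being developed against: Pdcd1, Ctla4, Lag3, Havcr2, Tigit, Cd160, Cd244a and Entpd1. All encode inhibitory receptors except Entpd1, which encodes an enzyme and is counted with the receptor genes below. They were taken by symbol from the 32285 genes of the deposited matrix, and each of the 8 symbols had 1 row. Their transcripts were followed in T cells and NK cells of subcutaneous Panc02 tumors, a mouse pancreatic cancer line, in male wild-type C57BL/6 mice aged 6 to 7 weeks whose tumors were harvested on day 38. The 8 treatments were every combination of PancVAX, a peptide vaccine against neoantigens of this line (50 µg of peptides per the labels, an amount that the methods give per peptide, on days 12 and 19), anti-PD-1 (100 µg in repeated doses from day 12) and anti-CTLA-4 (100 µg on days 15 and 22), with Isotype Control tumors as the group that had none of them. The study's methods give the vaccine with AddaVax and a STING agonist as adjuvants, so that the vaccine and its adjuvants cannot be told apart. They give PBS in place of the vaccine and isotype antibodies in place of each checkpoint antibody for the tumor growth experiments, and refer to that PancVAX regimen for the single-cell tumors. A figure legend of the study gives another second day for anti-CTLA-4 and another tumor day than the methods, which are followed here. Tumors were pooled by treatment, and each pool gave 1 library of dissociated whole tumor and 1 library enriched for leukocytes on Percoll, 16 in all. The 2 preparations were also the 2 sequencing batches, and whether they hold the same mice is not given.

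Inhibitory receptors are surface proteins that lymphocytes display after activation and that lower the response when they meet their ligands. Several of them on the same CD8+ T cell, together with the transcription factor TOX, mark the exhausted state that follows lasting antigen exposure in tumors, and some are also carried by regulatory T cells and NK cells. Antibodies against PD-1 and CTLA-4, the products of Pdcd1 and Ctla4, block these proteins at the cell surface, so a transcript count measures the target gene and not the blocked protein.

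The libraries held 77132398 to 176233225 UMIs each, and 57357 of 144994 barcodes passed the limits on genes, UMIs and mitochondrial reads. Cells were clustered without the 8 receptor genes, and clusters were named from marker genes. The names cover 14201 T and NK cells, of which 11309 were CD8+ T cells: 3916 exhausted-like, 4202 cytotoxic-like, 1609 naive-like, 771 interferon-signature-like, 337 granzyme C to G-like and 474 cycling-like. There were 1309 effector-like CD4+, 898 regulatory-like, 163 gamma-delta-like and 522 NK-like cells. The defining markers, which also served to name the clusters, are given as UMIs of a gene per 1000000 UMIs of the class (CPM): Tox was at 272 CPM in exhausted-like and 18.3 CPM in cytotoxic-like cells, Foxp3 at 390.1 CPM in regulatory-like cells and at or below 2.16 CPM in the other T cell classes, and Ncr1 at 494 CPM in NK-like cells. The naive-like class also held Trdc, a gamma-delta T cell gene, at 45.8 CPM and Ncr1 at 10.7 CPM. The part of gamma-delta T and NK cells in the receptor levels of this class was not tested. Any pair of libraries shared 5 to 45 barcode sequences among the cells that passed, and 133 barcode sequences of named T and NK cells occurred in more than 1 library. Scrublet marked 1.46% to 3.64% of cells as doublets in 14 libraries but 1 cell each in the Isotype Control whole-tumor and the PancVAX + Anti-PD-1 Percoll library, where the caller did not work, so no doublets were removed.

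Levels are given first as a description, since classes are clusters of the same cells. They are CPM per library, so that one class or library can be set beside another for 1 gene, and levels of different genes are not compared. Pdcd1, which encodes PD-1, the receptor for PD-L1 and PD-L2, had its highest median in exhausted-like CD8+ cells, at 538 CPM over 16 libraries (range 436 to 723). It was next in granzyme C to G-like cells (median 478, range 354 to 713, 13 libraries with at least 10 such cells) and cycling-like cells (median 392, range 35.2 to 578, 11 libraries). The ranges of these 3 classes overlapped, and those of regulatory-like cells (median 265, range 144 to 371), cytotoxic-like cells (median 239, range 86.8 to 354) and effector-like CD4+ cells (median 202, range 117 to 423) overlapped one another. Naive-like CD8+ cells (median 7.91, highest 18.9) and NK-like cells (median 0, no UMI in 9 of 16 libraries) lay below every library of the exhausted-like class.

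Ctla4, whose product takes CD80 and CD86 from the costimulatory receptor CD28, had another order. Regulatory-like cells stood apart at a median of 1258 CPM with a lowest library of 1016, above the highest library of any other class. Effector-like CD4+ cells (median 253, range 102 to 358), granzyme C to G-like cells (median 232, range 110 to 312), cycling-like cells (median 221, range 111 to 347) and exhausted-like cells (median 217, range 149 to 388) were not separated by their spread. Cytotoxic-like cells had a median of 107 CPM, naive-like cells 18.5 and NK-like cells 28.8.

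Lag3, a receptor for MHC class II, ran from 425 to 662 CPM in exhausted-like libraries (median 537) and from 34.1 to 221 CPM in cytotoxic-like ones (median 48.3). As for Pdcd1, Havcr2 and Tigit, the 2 ranges did not overlap. Granzyme C to G-like cells were at 349 CPM, regulatory-like cells at 215 and cycling-like cells at 199. Tigit, which binds the poliovirus receptor in competition with the activating receptor CD226, was highest in regulatory-like cells (median 746, range 405 to 1098), and its exhausted-like range of 316 to 538 CPM (median 413) overlapped with that. NK-like cells (median 165, range 93.3 to 247) and cytotoxic-like cells (median 132, range 69.4 to 291) could not be ordered for Tigit. Havcr2, which encodes TIM-3, was sparse: its medians were 68.0 CPM in cycling-like, 50.5 in regulatory-like, 46.4 in granzyme C to G-like and 45.3 in exhausted-like cells, all with overlapping ranges, against 11.3 in cytotoxic-like cells. No Havcr2 UMI was seen in 14 of 16 NK-like sums. Unthinned, 0.383% of NK-like cells had one, and 0 of 416 had one after each was thinned to 2000 UMIs, where the exact binomial interval reaches 0.883% for cells with a UMI at that depth and sets no limit on cells that express the gene.

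Cd160 and Cd244a are receptors that T cells share with NK cells, the first binding the herpesvirus entry mediator HVEM and the second, 2B4, binding CD48. Cd160 was at a median of 133 CPM in NK-like cells (range 52.4 to 285) and 132 CPM in exhausted-like cells (range 102 to 209), and naive-like cells (median 74.3, range 27.4 to 148) had a higher median than cytotoxic-like cells (median 34.1, range 15.8 to 187), with overlap. Cd244a was at 101 CPM in NK-like cells (range 61.9 to 253) and 65.9 CPM in exhausted-like cells (range 37.1 to 83.8). Its median in cytotoxic-like cells was 4.28 CPM, but those libraries ran from 0 to 88.1 CPM and so covered the exhausted-like range. Effector-like CD4+ and regulatory-like cells nearly lacked Cd244a, with no UMI in 13 of 16 libraries of each of these classes. Cd160 had no UMI in 10 of 16 libraries of regulatory-like cells (highest 15.3 CPM). In effector-like CD4+ cells it had none in 5 of 16 libraries, at a median of 8.11 and a highest of 75.45 CPM. Entpd1 encodes CD39, an enzyme that breaks down extracellular ATP. It had medians of 97.5 CPM in granzyme C to G-like, 81.6 in cycling-like, 73.5 in regulatory-like and 71.2 in exhausted-like cells with overlapping ranges, and 37.6 in cytotoxic-like cells. Interferon-signature-like CD8+ cells lay between naive-like and exhausted-like cells in the medians of Pdcd1 (197 CPM), Ctla4 (132), Lag3 (111), Tigit (138), Entpd1 (41.7) and Havcr2 (7.89). Their medians of Cd160 (44.1) and Cd244a (4.35) lay below those of naive-like cells (74.3 and 7.84). Gamma-delta-like cells, counted in 8 libraries, had Pdcd1 at 127, Ctla4 at 67.4 and Tigit at 8.21 CPM with medians of 0 for the other members.

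**Figure D1:**
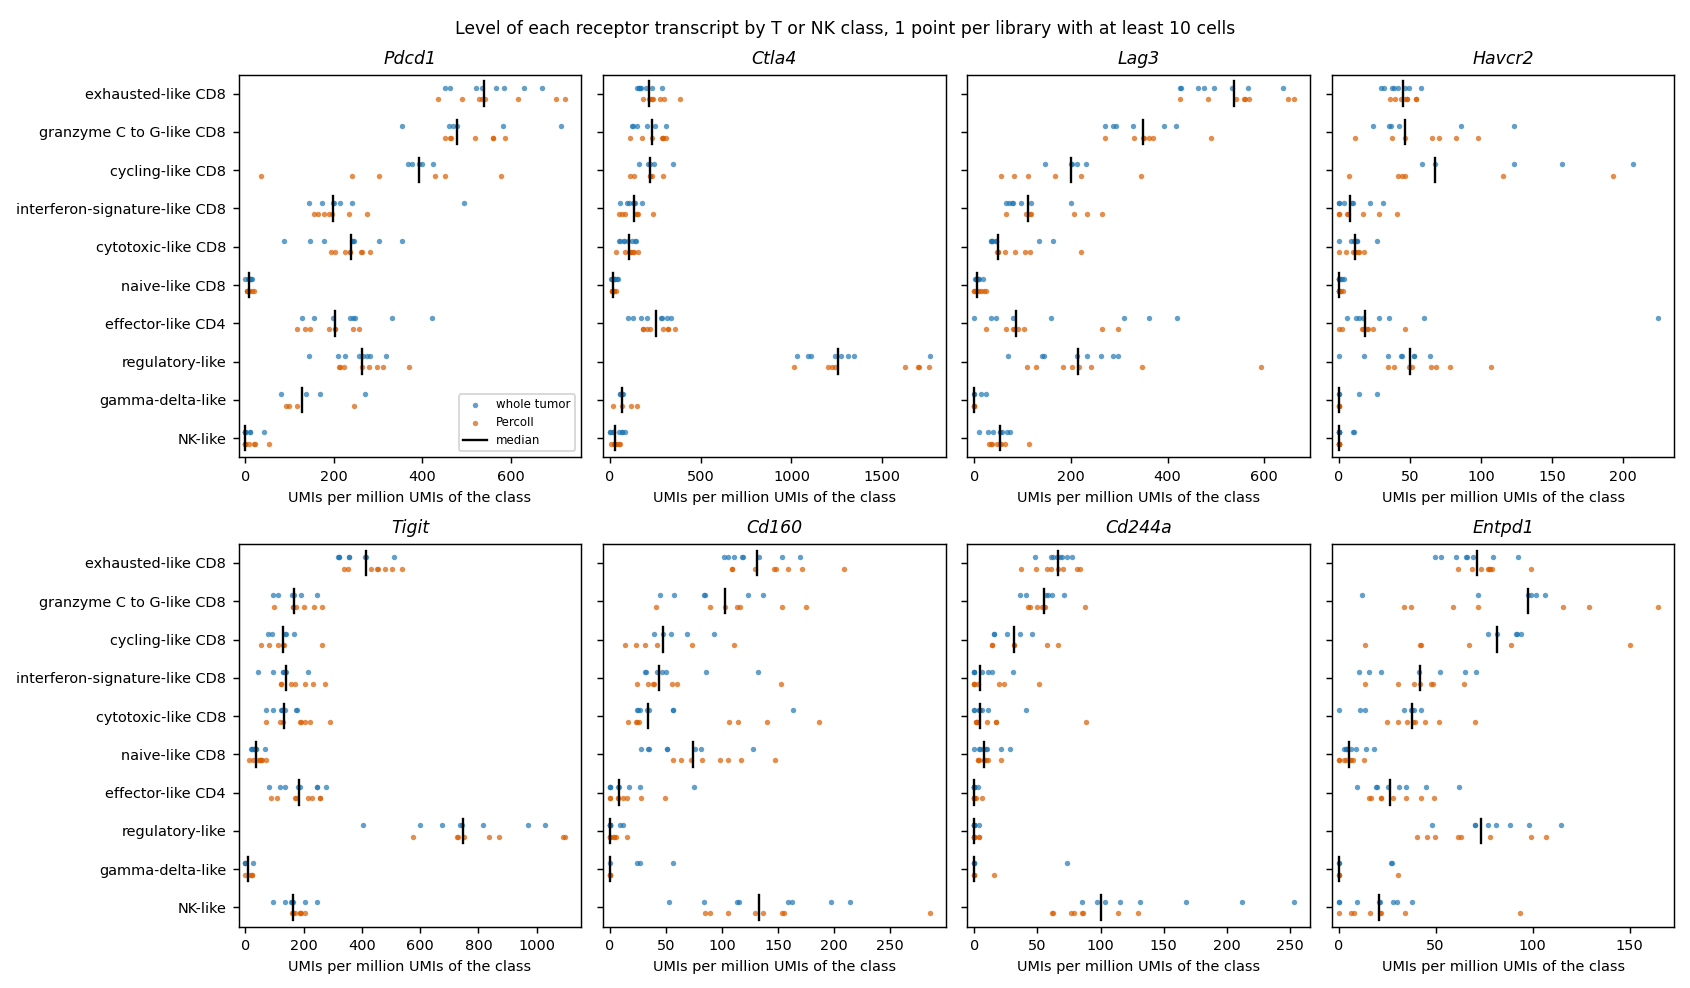
Level of each receptor gene in the T and NK cell classes, in CPM, with 1 point per library that has at least 10 such cells (blue for whole tumor, orange for Percoll) and a black line at the median. Ctla4 in regulatory-like cells lies above its level in every other class, and the exhausted-like libraries of Pdcd1 and Lag3 lie above the cytotoxic-like ones.

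Some of the receptor genes are not restricted to lymphocytes, and these levels bear on how pure the T cell sums are. Entpd1 was at a median of 299.6 CPM in neutrophil-like, 244 CPM in endothelial-like and 142 CPM in macrophage or monocyte-like cells, above its median in any T cell class. Havcr2 was at 120.2 CPM in dendritic cell-like, 63.1 CPM in macrophage or monocyte-like and 54.9 CPM in neutrophil-like cells, and Lag3 was at 57.2 CPM in macrophage or monocyte-like cells. Cd244a was at 42.8 CPM in neutrophil-like, 35.1 CPM in dendritic cell-like and 32.03 CPM in macrophage or monocyte-like cells, with UMIs in 16 of 16 libraries of each, against its median of 4.28 CPM in cytotoxic-like cells. By contrast, Pdcd1, Ctla4, Tigit and Cd160 had medians at or below 1.77 CPM in macrophage or monocyte-like and neutrophil-like cells. UMIs of 8 myeloid marker genes made up 129.9 to 204 CPM of the CD8+ T cell sums with PancVAX and 126 to 155 CPM without it, and 33.9% to 46.2% of CD8+ T cells of a pool had at least 1 such UMI. Their part in the results was not tested beyond removing those cells, whose effect is given with the processing alternatives.

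Co-detection was measured per cell after thinning each cell to 2000 UMIs, since more UMIs give more detected genes; 9667 CD8+ T cells were deep enough. At this depth 60.3% of exhausted-like cells had a Pdcd1 UMI (95% exact binomial interval 58.7% to 61.9%, counting error only), 60.3% had a Lag3 UMI, 51.9% Tigit, 31.5% Ctla4, 19.5% Cd160, 13.2% Entpd1, 12.0% Cd244a and 7.81% Havcr2. Unthinned, at a median of 4872 UMIs, the Pdcd1 share was 81.3%. The background from free RNA was read in cells of other types, of which B cells can carry CD39, the product of Entpd1: 0.0723% to 0.916% of tumor or epithelial-like cells (median 6361 UMIs) and 0.344% to 1.86% of B cell-like cells (median 2054 UMIs) had a UMI of a given receptor gene after the same thinning. Endothelial-like cells, 373 of 611 of which came from the PancVAX pool, had higher shares than B cell-like cells and were not used. Entpd1 aside, they ran from 0.780% for Cd244a to 3.31% for Lag3. Each gene other than Entpd1 was set beside its own share in B cell-like cells. Cd244a in effector-like CD4+ (0.0917%) and regulatory-like cells (0.295%), against 0.688% in B cell-like cells, and Havcr2 in naive-like cells (0.138% against 0.550%) were below it and are read as background. Cd244a in cytotoxic-like (0.814%), naive-like (1.86%) and interferon-signature-like cells (2.05%) and Cd160 in regulatory-like cells (0.442% against 0.344%) were above it with overlapping intervals. So were Pdcd1 in NK-like (1.68% against 1.17%) and naive-like cells (1.58%) and Lag3 in naive-like cells (1.38% against 0.757%). Overlap of intervals does not show that shares are equal, and these differences were not tested. Whether these values exceed the background was therefore not settled. Cd160 in effector-like CD4+ cells was at 1.1% (interval 0.570% to 1.91%), above tumor or epithelial-like cells (0.0578% to 0.222%) and meeting the upper end of B cell-like cells (0.112% to 0.801%). Ctla4 in naive-like (3.30%) and NK-like cells (4.33%) lay above B cell-like cells (0.825%, interval 0.427% to 1.44%), with intervals that did not meet. The intervals of these Ctla4 shares and of the Cd160 share overlapped those of endothelial-like cells (2.73% for Ctla4 and 1.37% for Cd160), which were not used as background.

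Exhausted-like cells carried several receptors at a time. Of 3651 such cells at 2000 UMIs, 52.1% had UMIs of 3 or more of the 8 genes, 3.94% had none, and 5.72% had 5 or more. Regulatory-like cells followed with 38.9% at 3 or more and granzyme C to G-like cells with 35.7%. The share was 18.7% in cycling-like, 9.82% in interferon-signature-like, 7.6% in cytotoxic-like, 7.06% in effector-like CD4+, 4.57% in NK-like and 0.551% in naive-like cells, and it was 0.413% in B cell-like and 0.0121% in tumor or epithelial-like cells. No T or NK cell had all 8 genes, and the most in any was 7.

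**Figure D2:**
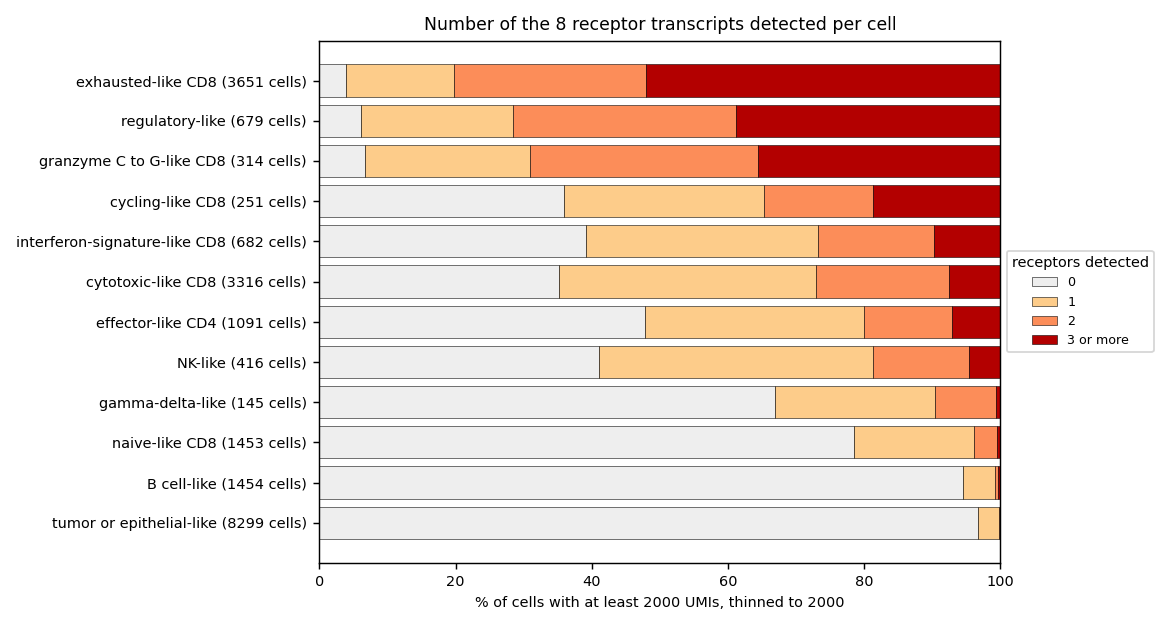
Share of cells (%) with UMIs of 0, 1, 2 or 3 or more of the 8 receptor genes in each class, as stacked bars, in cells thinned to 2000 UMIs. Exhausted-like cells have 3 or more in 52.1% of cells, naive-like cells in 0.551% and B cell-like cells in 0.413%.

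Pairs were compared by the Mantel-Haenszel odds ratio over libraries, which asks whether 2 genes are found in the same cell more often than their separate shares give. Across all CD8+ T cells the ratio was above 1 for 28 of 28 pairs, with a median of 1.67 and a highest value of 3.09 for Pdcd1 with Lag3, above 1 in 16 of 16 libraries. Within exhausted-like cells the median was 1.02, and 16 of 28 pairs were above 1. The pairs that stood highest there were Havcr2 with Entpd1 (1.69, above 1 in 14 of 16 libraries, 56 cells with both) and Lag3 with Tigit (1.45, 13 of 16 libraries, 1231 cells). The lowest were Cd160 with Entpd1 (0.664, above 1 in 4 of 16 libraries), Havcr2 with Cd160 (0.735, 2 of 16) and Ctla4 with Cd244a (0.739, 5 of 16). These ratios are a description, since cells of a library are not replicates and sparse counts hold few joint cells for the rarer genes.

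The other classes differed in which pairs could be counted. In cytotoxic-like cells 22 of the 24 pairs with at least 5 joint cells were above 1, with the highest ratio of 4.86 for Pdcd1 with Cd244a resting on 18 cells. In effector-like CD4+ cells all 16 countable pairs were above 1, and Lag3 with Havcr2 reached 12.9 on 14 cells. In regulatory-like cells Ctla4 and Tigit were found together in 52.7% of 679 cells at a ratio of 1.57, and Lag3 with Tigit had the highest ratio, 3.47. In NK-like cells 5 of 9 countable pairs were above 1. The limit of 5 joint cells leaves out pairs of rare genes unless their ratio is high. The counts of pairs above 1 in these classes are therefore partly set by the limit.

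**Figure D3:**
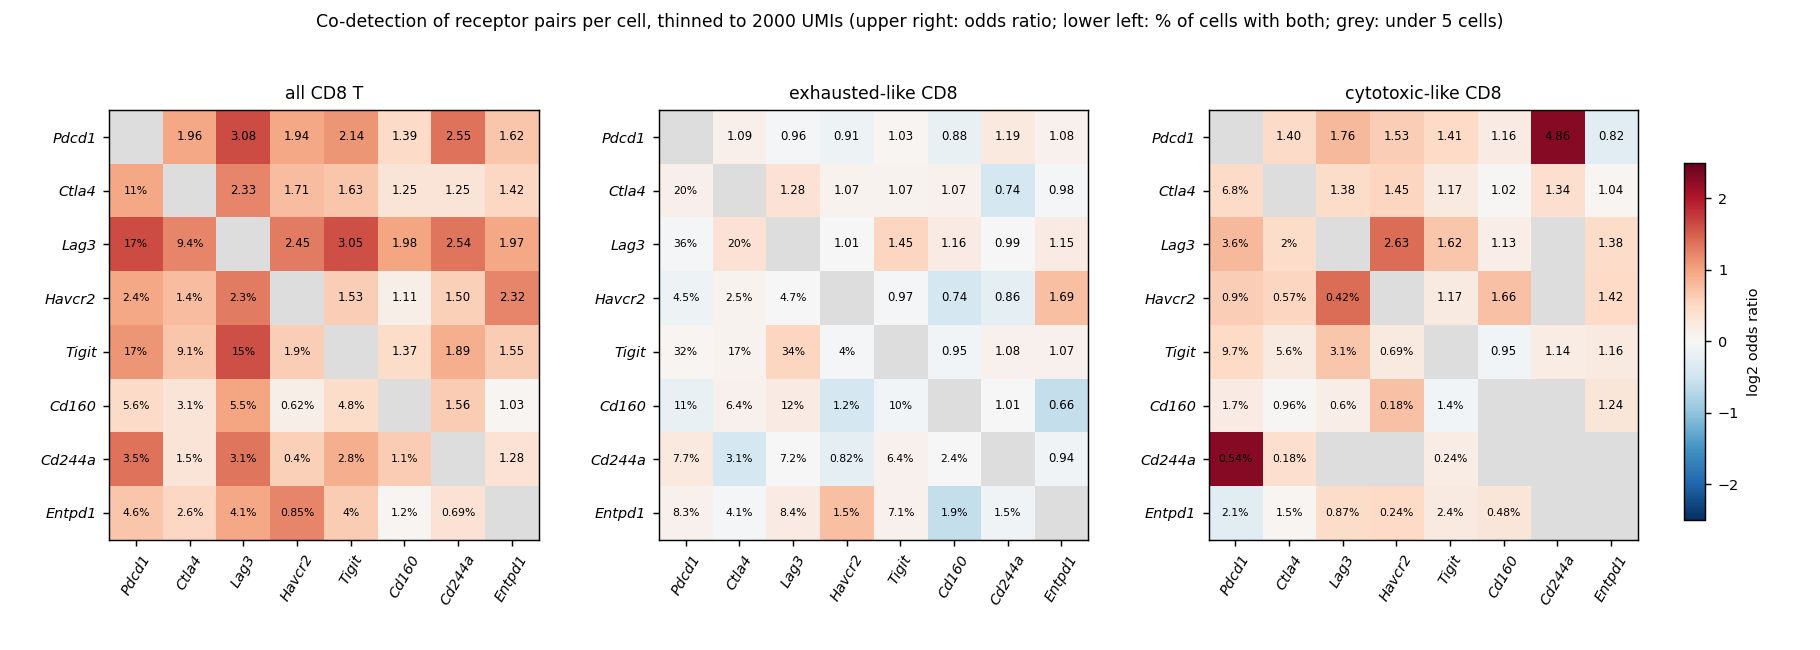
Co-detection of receptor pairs in all CD8+, exhausted-like and cytotoxic-like cells thinned to 2000 UMIs: colour gives the log2 odds ratio, numbers above the diagonal the odds ratio and those below it the share of cells with both genes (%), and grey marks pairs with under 5 joint cells. The 28 pairs are above 1 in all CD8+ T cells and lie on both sides of 1, from 0.664 to 1.69, in exhausted-like cells.

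The first comparison asked whether the receptor genes differed between the 4 pools with PancVAX and the 4 without. Summed over all CD8+ T cells, 4 of the 8 were lower with PancVAX: Lag3, Havcr2, Cd160 and Cd244a. A gene was called at an edgeR quasi-likelihood adjusted p under 0.05 over all genes tested and an absolute log2 fold change over 0.5. By this rule 11.0% of 10951 genes were called and 4.57% were called lower, so 4 of 8 is a larger share than among all genes. No receptor gene was called higher.

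Cd244a was at 20.3, 22.0, 17.6 and 21.6 CPM in the PancVAX, PancVAX + Anti-PD-1 + Anti-CTLA-4, PancVAX + Anti-PD-1 and PancVAX + Anti-CTLA-4 pools. It was at 52.1, 52.5, 47.6 and 54.1 CPM in the Anti-PD-1 + Anti-CTLA-4, Anti-CTLA-4, Anti-PD-1 and Isotype Control pools. The groups were well apart, with every pool that had the vaccine below every pool that did not, and the log2 fold change was -1.42 ± 0.09 (SE; edgeR adjusted p 9.7e-07). Lag3, in the same order of pools, was at 186, 246, 213 and 145 CPM with PancVAX and at 329.7, 348, 353 and 372 CPM without it. These groups did not overlap either, although the pools with vaccine spread widely, and the log2 fold change was -0.92 ± 0.11 (edgeR adjusted p 0.00016). Cd160 was at 77.5, 68.4, 52.2 and 66.5 CPM with PancVAX and at 134.9, 111, 94.9 and 109 CPM without it, again with no overlap (log2 fold change -0.85 ± 0.12, edgeR adjusted p 0.00034). Havcr2 was at 26.3, 25.02, 22.2 and 22.0 CPM with PancVAX and at 32.5, 35.1, 39.8 and 34.1 CPM without it. It was the smallest of the called differences, at -0.65 ± 0.10 (edgeR adjusted p 0.00078).

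The other members moved less. Pdcd1 (log2 fold change -0.33 ± 0.07, edgeR adjusted p 0.0053) and Tigit (-0.39 ± 0.08, adjusted p 0.0067) passed the p threshold but not the fold limit, and the pools overlapped for both. Entpd1 did not pass (-0.29 ± 0.11, adjusted p 0.080). Ctla4 was at 135 to 174 CPM with PancVAX and 124 to 163 CPM without it, at a log2 fold change of -0.01 ± 0.07 (edgeR adjusted p 0.96). The 4 calls held within each preparation: in Percoll libraries the log2 fold changes were -1.48 for Cd244a, -0.83 for Lag3, -0.90 for Cd160 and -0.62 for Havcr2, and in whole-tumor libraries they were -1.39, -1.03, -0.78 and -0.68 in the same order.

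The makeup of the CD8+ T cells moved with the same comparison. Exhausted-like cells were 14.9% to 23.6% of CD8+ T cells in the pools with PancVAX and 52.6% to 66.0% in those without, cytotoxic-like cells were 49.2% to 61.0% and 4.49% to 7.18%, and naive-like cells were 5.20% to 13.2% and 16.5% to 31.7%. The share of CD8+ T cells with 3 or more receptor genes, thinned, was 15.0% to 23.6% with PancVAX and 31.5% to 37.0% without it. The part of the makeup in the summed levels was not tested as such; the levels within classes are given next.

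Promoter windows are shown for the called genes that have one in the RefSeq table (build GRCm38.p6; 7 of the 8 genes have an entry, and Lag3 is named only), from 250 bases before to 50 after the start site, since these genes were lower with PancVAX in the sum of CD8+ T cells. The strand and coordinates are Havcr2 chr11:46454681-46454980 (+), Cd160 chr3:96829302-96829601 (-) and chr3:96814472-96814771 (-) for its 2 start sites, and Cd244a chr1:171558943-171559242 (+), each printed 5′ to 3′ on the gene's strand. Capitals mark matches, on either strand, to AP-1 (TGANTCA), the NFAT core (GGAAA) or Runx (TGTGGT), motifs of factors known in activated and exhausted T cells.
Havcr2: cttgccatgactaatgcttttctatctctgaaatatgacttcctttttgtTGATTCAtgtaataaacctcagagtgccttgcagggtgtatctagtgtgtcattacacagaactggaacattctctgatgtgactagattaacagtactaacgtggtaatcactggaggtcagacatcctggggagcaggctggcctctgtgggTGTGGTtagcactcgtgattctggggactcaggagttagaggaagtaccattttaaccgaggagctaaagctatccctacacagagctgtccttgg
Cd160 first window: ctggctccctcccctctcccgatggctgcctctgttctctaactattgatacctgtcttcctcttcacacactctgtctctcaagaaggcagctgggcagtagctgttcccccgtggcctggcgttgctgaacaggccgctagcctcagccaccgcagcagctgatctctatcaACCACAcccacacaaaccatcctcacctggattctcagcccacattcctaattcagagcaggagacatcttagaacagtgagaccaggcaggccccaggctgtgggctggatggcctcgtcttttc
Cd160 other window: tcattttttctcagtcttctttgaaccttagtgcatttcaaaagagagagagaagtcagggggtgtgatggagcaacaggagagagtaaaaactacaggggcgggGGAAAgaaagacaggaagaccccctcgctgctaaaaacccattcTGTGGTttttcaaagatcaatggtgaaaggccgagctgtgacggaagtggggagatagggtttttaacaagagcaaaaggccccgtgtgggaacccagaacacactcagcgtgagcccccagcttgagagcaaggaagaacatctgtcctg
Cd244a: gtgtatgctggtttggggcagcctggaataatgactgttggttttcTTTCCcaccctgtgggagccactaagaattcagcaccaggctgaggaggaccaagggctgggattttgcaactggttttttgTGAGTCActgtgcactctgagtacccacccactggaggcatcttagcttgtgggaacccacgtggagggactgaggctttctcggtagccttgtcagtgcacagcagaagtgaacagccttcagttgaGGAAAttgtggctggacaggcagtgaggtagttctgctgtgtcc
An AP-1 match lay at -200 in the Havcr2 window and at -122 in the Cd244a window, and 7.81% of 32851 such windows hold one. Runx matches lay at -46 for Havcr2 and at -76 and -101 in the 2 windows of Cd160 (16.8% of windows), and the short NFAT core is in 61.3% of windows. The matches are letters in these windows and say nothing of binding.

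Within exhausted-like CD8+ cells, edgeR called none of the 8 receptor genes by PancVAX, beside 0.212% of 9423 genes. At an unadjusted p under 0.05 there were 4 (Pdcd1, Ctla4, Tigit and Cd244a), and DESeq2 called 0. Pdcd1 was at 577, 689.5, 572 and 627 CPM with PancVAX and at 553, 441, 533 and 491 CPM without it, in the order of pools used above. The groups were narrowly apart, with the pools that had vaccine higher (log2 fold change 0.23 ± 0.08, edgeR adjusted p 0.23). Lag3 was at 478 to 644 CPM with PancVAX and 426 to 549 CPM without it, Cd160 at 113 to 173 and 106 to 150 CPM, and Cd244a at 47.7 to 76.8 and 64.0 to 73.5 CPM, so that the genes called lower in the sum of CD8+ T cells overlapped here. The share of exhausted-like cells with 3 or more receptor genes was 50.0% to 64.2% with PancVAX and 45.1% to 51.1% without it.

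Within cytotoxic-like CD8+ cells 3 of 8 were lower with PancVAX, beside 2.52% of 8388 genes called and 0.787% called lower. Cd160 was at 29.2, 25.01, 19.8 and 25.4 CPM with PancVAX and at 143, 114, 134 and 69.96 CPM without it, a wide gap between the groups (log2 fold change -2.27 ± 0.22, edgeR adjusted p 4.7e-10). Lag3 was at 43.3, 55.7, 43.2 and 39.9 CPM with PancVAX and at 162, 100.4, 134 and 69.96 CPM without it, also apart (-1.37 ± 0.19, edgeR adjusted p 3.6e-06). Cd244a was at 2.92, 3.92, 2.53 and 3.18 CPM with PancVAX and at 15.1, 6.93, 26.7 and 43.7 CPM without it (-2.58 ± 0.61, edgeR adjusted p 0.0079), on 2 to 13 UMIs per pool. Cd244a passed the low-count filter through the pools without PancVAX, where it is high. Its call should therefore not count toward the 3 of 8 set beside all genes. The thinned share of cells with a Cd244a UMI was 0.384% to 0.841% with PancVAX, beside 0.688% of B cell-like cells (interval 0.330% to 1.26%). Without it the share was 1.75%, 1.49%, 6.82% and 3.33% in the Anti-PD-1 + Anti-CTLA-4, Anti-CTLA-4, Anti-PD-1 and Isotype Control pools, on 1, 1, 3 and 1 cells with a UMI among 30 to 67 thinned cells per pool. Cytotoxic-like cells were few in the pools without vaccine, 35 to 90 per pool against 659 to 1349. Without the Anti-PD-1 or the Isotype Control pool, or with cells holding a myeloid UMI removed, Cd244a was no longer called (edgeR adjusted p 0.057, 0.067 and 0.069), at log2 fold changes of -2.41, -2.20 and -2.68. Cd160 and Lag3 were called within Percoll libraries (log2 fold change -2.61 and -1.30) and within whole-tumor libraries (-1.51 and -1.32).

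Pdcd1, Tigit, Ctla4, Entpd1 and Havcr2 were not called in cytotoxic-like cells. Pdcd1 was at 211 to 257 CPM with PancVAX and 184 to 262 CPM without it, at a log2 fold change of 0.02 ± 0.14. The difference of the vaccine's effect between cytotoxic-like and exhausted-like cells, a comparison chosen after seeing the calls by class and fitted with pools as a block, was -2.39 ± 0.20 for Cd160 (edgeR adjusted p 4.4e-12), -1.54 ± 0.19 for Lag3 (2.8e-07) and -2.26 ± 0.49 for Cd244a (0.0071), beside 0.922% of genes called. The other members gave no call in it.

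**Figure D4:**
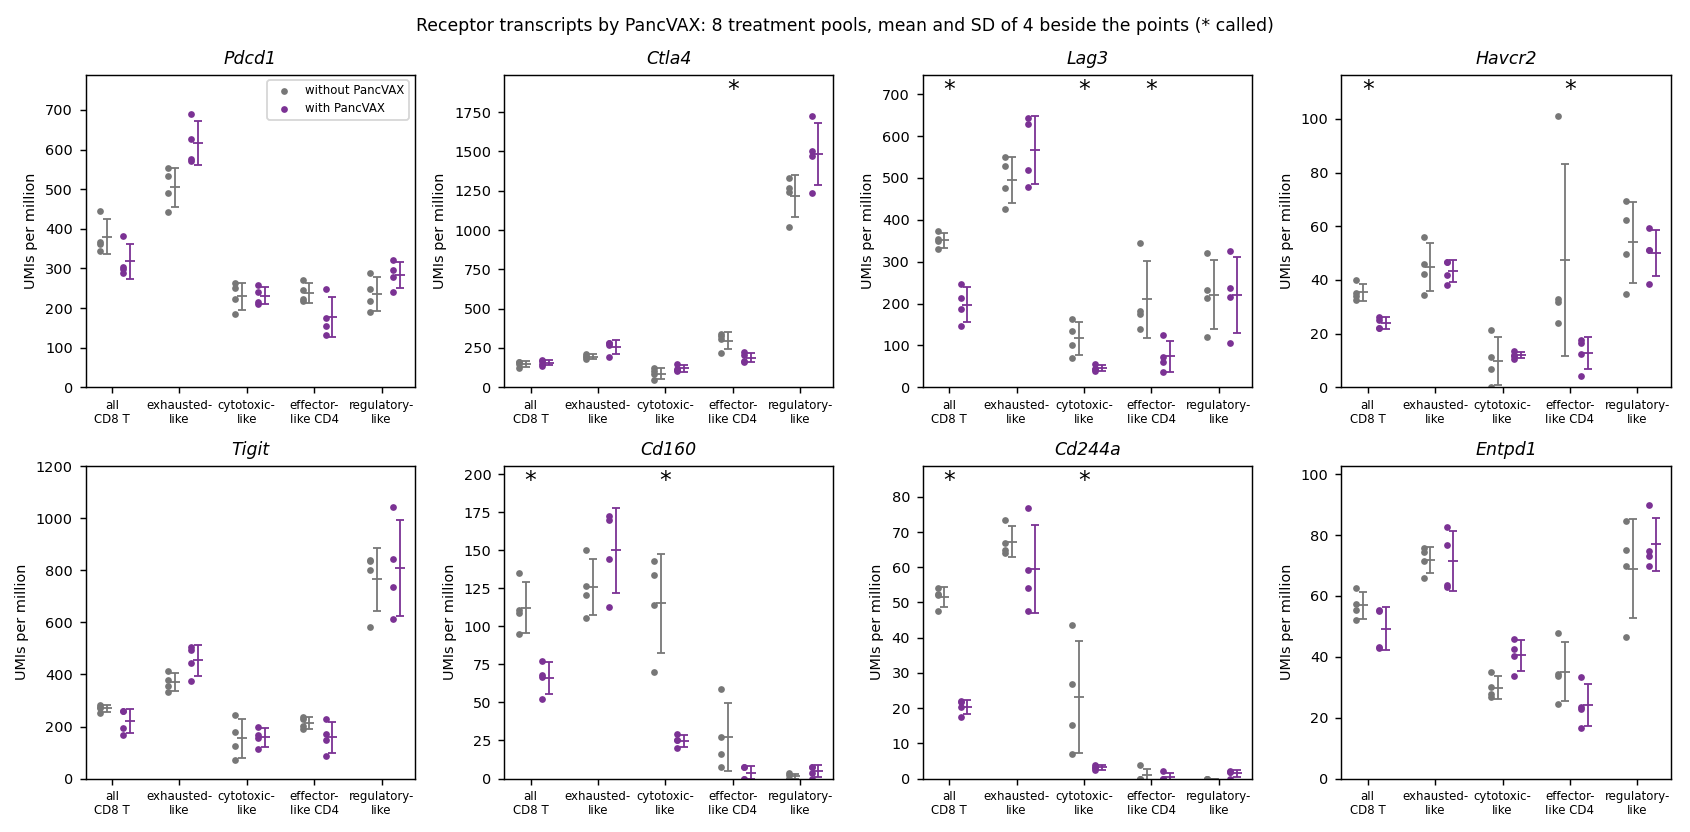
Level of each receptor gene, in CPM, in the 4 pools with PancVAX (purple) and the 4 without (grey), with 1 point per pool, the mean and SD beside the points, and an asterisk where edgeR called the gene. The Lag3, Cd160 and Cd244a pools do not overlap in all CD8+ T cells and in cytotoxic-like cells, and they overlap in exhausted-like cells.

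Among CD4+ cells the effector-like class held 3 lower members of 7 tested (Cd244a was too sparse), beside 3.34% of 5328 genes called and 1.41% called lower. Lag3 was at 72.6, 125, 59.8 and 37.1 CPM with PancVAX and at 176, 181, 344 and 139 CPM without it, with no overlap (log2 fold change -1.54 ± 0.26, edgeR adjusted p 0.0023). Havcr2 was at 12.4, 17.7, 16.5 and 4.37 CPM with PancVAX and at 24.1, 31.95, 101 and 32.8 CPM without it, on 4 to 27 UMIs per pool (-1.85 ± 0.40, edgeR adjusted p 0.012). Havcr2 passed the low-count filter in this class through pools without PancVAX, where it is high. Its call should therefore not count toward the 3 of 7 set beside all genes. Ctla4 was at 160 to 223 CPM with PancVAX and 218 to 336 CPM without it, with the groups overlapping slightly (-0.62 ± 0.16, edgeR adjusted p 0.040). These calls were the least stable ones: none of the 3 was called without the Anti-PD-1 pool, only Lag3 without the PancVAX, the PancVAX + Anti-PD-1 or the PancVAX + Anti-PD-1 + Anti-CTLA-4 pool, and none within Percoll libraries (Lag3 -1.22, adjusted p 0.087), while Lag3 (-1.97) and Ctla4 (-1.02) were called within whole-tumor libraries. DESeq2 called 2 of them.

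In regulatory-like cells none of the 6 tested members was called by edgeR, beside 0.265% of 5289 genes, with 1 (Ctla4) at an unadjusted p under 0.05 and 0 by DESeq2. Ctla4 was at 1237 to 1724 CPM with PancVAX and 1022 to 1333 CPM without it, with overlap (log2 fold change 0.25 ± 0.12, adjusted p 0.56). The vaccine's effect in effector-like CD4+ minus regulatory-like cells, also compared after seeing the calls, was -0.88 ± 0.15 for Ctla4 (edgeR adjusted p 0.0013) and -1.62 ± 0.31 for Lag3 (0.0041), beside 0.916% of genes called. In NK-like cells 5 members could be tested and none was called by edgeR (0.0264% of 3793 genes, 0 at an unadjusted p under 0.05, 0 by DESeq2). Tigit in NK-like cells was at 176 to 209 CPM with PancVAX and 155 to 172 CPM without it, narrowly apart, with a log2 fold change of 0.15 ± 0.18.

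The antibodies were compared next, each as 4 pools with against 4 without, to ask whether the targeted transcripts or the other receptors differed. Neither antibody gave a called member by edgeR or DESeq2 in all CD8+ T cells or in the exhausted-like, cytotoxic-like, effector-like CD4+, regulatory-like and NK-like cells, the groupings in which it was tested. For anti-PD-1 the members at an unadjusted p under 0.05 were 2 in all CD8+ T cells, 2 in exhausted-like, 2 in cytotoxic-like, 3 in effector-like CD4+, 0 in regulatory-like and 0 in NK-like cells, beside 0%, 0.0212%, 0.0238%, 0.0188%, 0.0567% and 0% of genes called. For anti-CTLA-4 they were 2, 0, 1, 1, 0 and 0 in the same order of classes, beside 0.00913%, 0.0106%, 0.0477%, 0.0751%, 0.0756% and 0.0527% of genes called. In effector-like CD4+ cells 7 of 7 tested members were higher with anti-PD-1, none of them called. Their median log2 fold change was 0.49, against 0.005 over all genes, and this shift was not tested as a set.

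Pdcd1 itself was at 383, 305, 444 and 363 CPM in all CD8+ T cells of the PancVAX + Anti-PD-1 + Anti-CTLA-4, PancVAX + Anti-PD-1, Anti-PD-1 + Anti-CTLA-4 and Anti-PD-1 pools, and at 287, 298, 345 and 367 CPM in the PancVAX, PancVAX + Anti-CTLA-4, Anti-CTLA-4 and Isotype Control pools. These values overlapped, and the log2 fold change with anti-PD-1 was 0.20 ± 0.07 (edgeR adjusted p 0.99). Ctla4 in regulatory-like cells was at 1724, 1473, 1241 and 1022 CPM in the PancVAX + Anti-PD-1 + Anti-CTLA-4, PancVAX + Anti-CTLA-4, Anti-PD-1 + Anti-CTLA-4 and Anti-CTLA-4 pools and at 1501, 1237, 1269 and 1333 CPM in the pools without the antibody. The groups overlapped fully, at a log2 fold change of 0.02 ± 0.12 (edgeR adjusted p 0.9999). The value nearest to a call was Tigit with anti-PD-1 in cytotoxic-like cells, at 0.58 ± 0.14 (edgeR adjusted p 0.17, unadjusted p 0.00018). It was called when the fit used 16 libraries with preparation as a term, without the low-count filter, or without the PancVAX + Anti-CTLA-4, the Anti-PD-1 + Anti-CTLA-4 or the Anti-CTLA-4 pool.

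Both antibodies together were compared over the 16 libraries, with and without vaccine. Each side of these contrasts is 1 pool, whose whole-tumor and Percoll libraries stand as 2 samples, so the p-values and the shares of genes called measure the spread between the libraries of a pool and not that between treated groups of mice. When they were added to PancVAX, edgeR and DESeq2 called no member in exhausted-like cells (0.927% of genes called, 3 members at an unadjusted p under 0.05) or regulatory-like cells (0%, 2 members). Ctla4 in exhausted-like cells had a log2 fold change of 0.54 ± 0.16 (edgeR adjusted p 0.11), and Lag3 in regulatory-like cells one of 1.62 ± 0.40 (adjusted p 0.18). The pool sums behind the latter were 326 CPM with both antibodies and 105 CPM with PancVAX alone, the lowest of the 8 pools, on 160 and 30 UMIs. Leaving out either Isotype Control library, which belongs to neither group, made Lag3 a call there. Against isotype control, the antibodies without vaccine gave no called member by either tool in exhausted-like (0.317% of genes called, 1 member at an unadjusted p under 0.05) or regulatory-like cells (0.152%, 0 members).

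Percoll and whole-tumor libraries were compared with treatment as a term, again over the spread between the libraries of a pool. No member was called by edgeR or DESeq2 in all CD8+ T cells (6.91% of genes called), exhausted-like (4.74%), cytotoxic-like (6.14%), effector-like CD4+ (3.25%), regulatory-like (2.33%) or NK-like cells (4.54%), and 4, 3, 2, 1, 0 and 1 members had an unadjusted p under 0.05. Several were past the p threshold but under the fold limit, all higher in Percoll libraries: Ctla4 (log2 fold change 0.35 ± 0.06), Tigit (0.32 ± 0.06), Cd160 (0.21 ± 0.07) and Lag3 (0.19 ± 0.05) in all CD8+ T cells, Ctla4 (0.38 ± 0.07) and Tigit (0.20 ± 0.06) in exhausted-like cells, and Lag3 (0.45 ± 0.14) and Tigit (0.50 ± 0.09, edgeR adjusted p 1.2e-05) in cytotoxic-like cells, the last just under the fold limit. The effects of the 3 treatments did not differ by preparation past the threshold in any of 111 tests of a member (lowest edgeR adjusted p 0.97, with 10 tests at an unadjusted p under 0.05).

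The share of CD8+ T cells with UMIs of both antibody targets, Pdcd1 and Ctla4, was compared over pools. After thinning it was 7.90%, 11.5%, 9.75% and 11.9% in the PancVAX, PancVAX + Anti-PD-1 + Anti-CTLA-4, PancVAX + Anti-PD-1 and PancVAX + Anti-CTLA-4 pools, and 14.4%, 11.6%, 9.22% and 13.3% in the Anti-PD-1 + Anti-CTLA-4, Anti-CTLA-4, Anti-PD-1 and Isotype Control pools. The groups overlapped, with means of 10.2% ± 1.81 (SD, n = 4) and 12.1% ± 2.26 (SD, n = 4), and the difference of -1.90 percentage points gave p = 0.26 by an exact two-sided permutation test over 70 splits, which can give no p under 0.029. Without thinning the difference was -9.95 percentage points (exact permutation p = 0.029), with a median of 3262 to 3346 UMIs per CD8+ T cell in pools with PancVAX and 4061 to 4682 in those without. Within exhausted-like cells the thinned share was 16.7%, 25.9%, 23.1% and 30.0% with PancVAX and 18.3%, 15.8%, 15.1% and 20.9% without it in the same order of pools. There 3 of the 4 pools with vaccine lay above every pool without it and the PancVAX pool lay among them, and the difference was not tested. In cytotoxic-like cells the share was 5.57% to 9.45% with PancVAX and 0% to 8.96% without it.

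T cell receptor sequences of the 8 Percoll libraries allowed cells of expanded clones, defined by a shared TRB V gene and CDR3 in 2 or more cells of a library, to be compared with cells of clones seen once. Of 5910 CD8+ T cells, 3114 were in expanded clones, 1758 were single and 1038 had no TRB contig. In all CD8+ T cells 7 of 8 members were higher in expanded clones, in 8 of 8 libraries each, beside 9.54% of 8702 genes called and 4.65% called higher. Lag3 ran from 217 to 586 CPM (median 378) in expanded and 109 to 182 CPM (median 155) in single cells, with no overlap, at a log2 fold change of 1.31 ± 0.08 (edgeR adjusted p 7.3e-09). Pdcd1 ran from 304 to 546 CPM against 129 to 277 CPM, likewise apart (1.17 ± 0.11, edgeR adjusted p 8.6e-07). Cd244a ran from 19.4 to 86.4 CPM against 4.41 to 28.8 CPM, so the ranges overlapped although the expanded value was higher in each library (1.54 ± 0.16, edgeR adjusted p 3.3e-06).

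Entpd1 (0.93 ± 0.14), Havcr2 (0.87 ± 0.13), Tigit (0.86 ± 0.09) and Ctla4 (0.74 ± 0.10) were also called, with edgeR adjusted p from 3.0e-06 to 0.00011. Cd160 was the exception, higher in 6 of 8 libraries at 0.18 ± 0.10 (edgeR adjusted p 0.26). The states of the cells moved with clone size: 55.8% of cells in expanded clones were exhausted-like and 1.03% naive-like, against 16.1% and 32.5% of single cells.

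Within exhausted-like cells edgeR and DESeq2 called no member by clone size, beside 0.484% of genes, and 1 member, Cd244a, had an unadjusted p under 0.05 (log2 fold change 0.64 ± 0.22, edgeR adjusted p 0.24, higher in 7 of 8 libraries). Pdcd1 had a median of 539.8 CPM in expanded and 548 CPM in single exhausted-like cells (0.01 ± 0.08). Within cytotoxic-like cells, added after seeing these results and testable in 5 libraries, Pdcd1 was higher in expanded clones (0.51 ± 0.10, edgeR adjusted p 0.0011, beside 0.148% of genes called), and the other 5 members tested were not called.

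**Figure D5:**
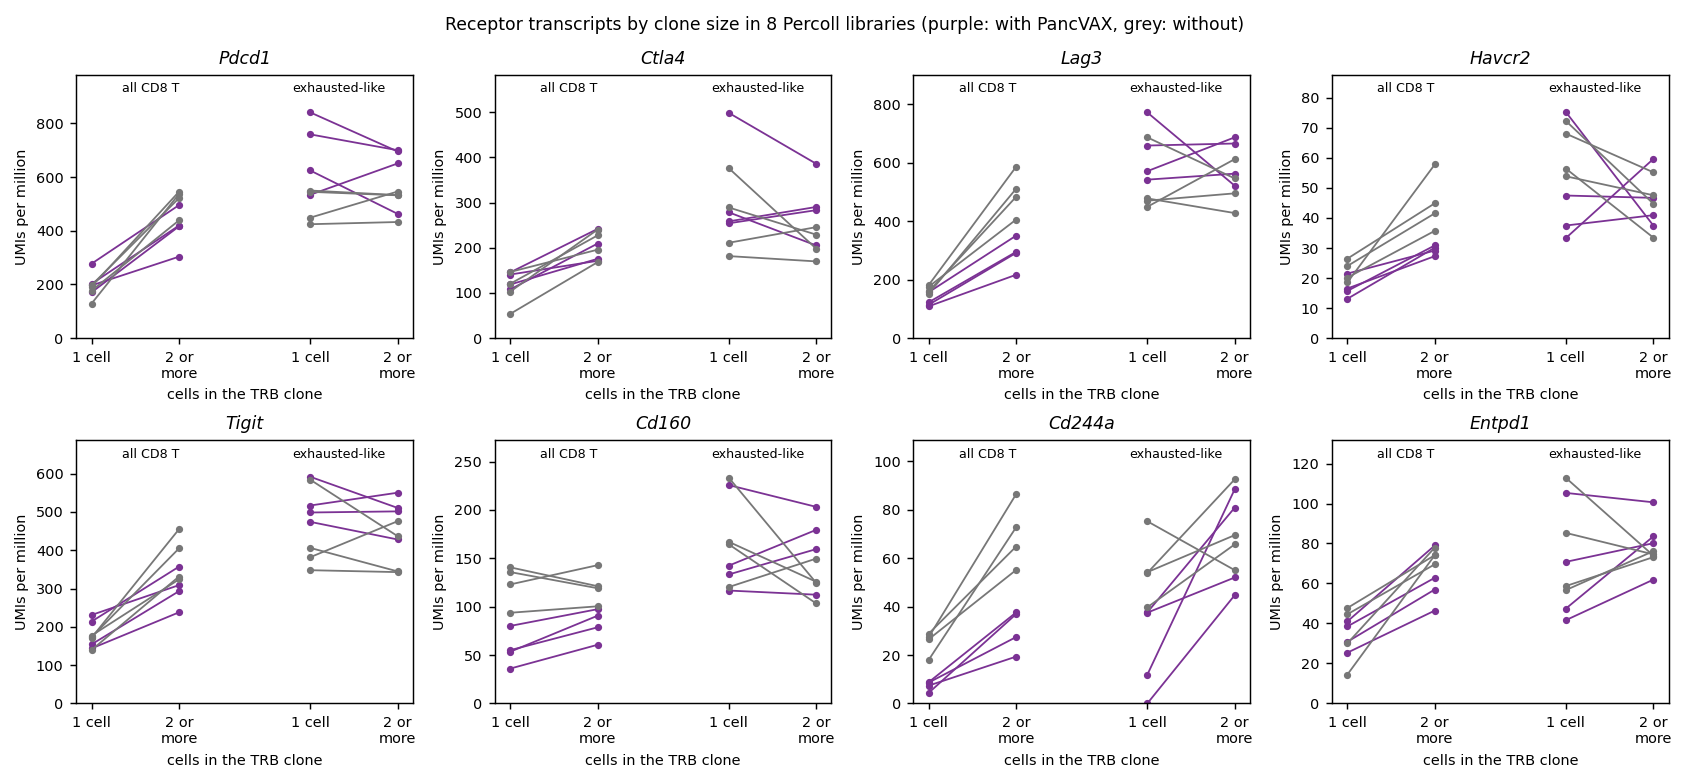
Level of each receptor gene, in CPM, in cells of clones with 1 cell and with 2 or more cells, for all CD8+ T cells and for exhausted-like cells, with the values of each Percoll library joined by a line (purple with PancVAX, grey without). In all CD8+ T cells the lines of every gene but Cd160 rise in 8 of 8 libraries, and in exhausted-like cells they run both ways.

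Genes beside the receptors were read from 3 lists of 10 each. With PancVAX 11.0% of all genes tested in CD8+ T cells were called, 6.42% higher and 4.57% lower, and 3 genes of each list were called. Of the ligands, 8 were tested in all CD8+ T cells and 2 were higher with PancVAX, Cd80 (log2 fold change 0.79 ± 0.23) and Pvr (0.60 ± 0.12), the ligands of CTLA-4 and TIGIT, while Pdcd1lg2, which encodes PD-L2, was lower (-0.65 ± 0.08). The median over the ligands was 0.35 and over all genes 0.01. Of 9 other inhibitory receptors tested, Klrg1 (2.13 ± 0.32) and the collagen receptor Lair1 (0.65 ± 0.17) were higher and Cd200r1 was lower (-0.98 ± 0.11), with a median of 0.24. Of 10 signaling partners, the costimulatory receptors Cd226 (0.76 ± 0.09) and Cd28 (0.57 ± 0.10), which compete with TIGIT and CTLA-4 for ligands, were higher and Ptpn6, encoding the phosphatase SHP-1, was lower (-0.72 ± 0.12), with a median of 0.06. In exhausted-like cells 0 of 8 ligands, 0 of 6 other receptors and 0 of 10 partners tested were called by edgeR with PancVAX, beside 0.212% of all genes, with 3, 1 and 2 at an unadjusted p under 0.05 and 0 called by DESeq2.

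In cytotoxic-like cells 1 of 8 other inhibitory receptors, 2 of 10 partners and 0 of 6 ligands tested (0 at an unadjusted p under 0.05, 0 by DESeq2) were called by edgeR with PancVAX, beside 2.52% of all genes (1.73% higher and 0.787% lower). Klrc1, which encodes the inhibitory receptor NKG2A (0.97 ± 0.14), and Ptpn11, encoding SHP-2, the phosphatase that PD-1 recruits (1.04 ± 0.28), were higher with PancVAX, and Sh2d1a, the adaptor SAP that binds 2B4, was lower (-0.92 ± 0.18). Sh2d1a was also lower in effector-like CD4+ cells (-0.96 ± 0.23), called as 1 of 10 partners, with 0 of 6 other receptors and 0 of 4 ligands (3 and 1 at an unadjusted p under 0.05, 0 by DESeq2), beside 3.34% of all genes (1.93% higher and 1.41% lower). In all CD8+ T cells of expanded clones 4 of 8 other receptors, 1 of 10 partners and 3 of 7 ligands were called, beside 9.54% of all genes (4.65% higher and 4.88% lower). Cd200r1 (1.06 ± 0.16), Klrc1 (0.64 ± 0.11), Cd96 (0.60 ± 0.08) and Lilrb4a (0.57 ± 0.11) were higher, as were the adaptor gene Sh2d2a (0.76 ± 0.09), Cd80 (1.42 ± 0.37) and Pdcd1lg2 (0.82 ± 0.13), and Lgals9, a ligand of TIM-3, was lower (-0.61 ± 0.09). Within exhausted-like cells edgeR called 0 of 6 other receptors, 0 of 10 partners and 0 of 5 ligands by clone size, with 2, 2 and 1 at an unadjusted p under 0.05, and within cytotoxic-like cells 0 of 7, 0 of 10 and 0 of 6, with 0, 1 and 1. DESeq2 called none of them in either class. With both antibodies against isotype control, Klrg1 was lower in regulatory-like cells (-1.40 ± 0.30), 1 of 5 other receptors tested, with no call among 9 partners and 4 ligands (1 and 0 at an unadjusted p under 0.05) and none of these by DESeq2, beside 0.152% of all genes. All of these passed the same edgeR rule. DESeq2 called them too, except Klrg1 in the last comparison and, with PancVAX, Ptpn11 in cytotoxic-like cells and Cd80 and Lair1 in all CD8+ T cells.

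The genes whose level was most like that of each receptor were ranked by Pearson correlation of log2 CPM over 80 sums of class and pool, among 5441 genes. The sums share cells' library and depth, and no p is given. Lag3 and Tigit were each other's nearest (r = 0.84). Cd160 and Cd244a shared Klre1, an NK cell receptor gene, as nearest (r = 0.85 and 0.82), with the chemokine gene Xcl1 next for Cd160 (0.84). Entpd1 was nearest to Lag3 (0.79) and Havcr2 (0.74). Pdcd1 was nearest to S100a4 (0.82), Mdfic (0.81) and Adam19 (0.81), Havcr2 to Nrn1 (0.78) and Gdi2 (0.78), and Ctla4 to Lamc1 (0.79), the regulatory T cell chemokine receptor gene Ccr8 (0.79) and Areg (0.78).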

How the data were processed

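The deposited matrix holds raw UMI counts per gene and barcode, which per the labels the submitters made with Cell Ranger 4.0.0 against mm10 from 10x 5′ libraries with V(D)J enrichment and then handled with Seurat; the authors' cell names were not used. Barcodes were kept with 200 to 3000 genes, 1000 to 10000 UMIs, under 10% mitochondrial UMIs and no hemoglobin UMI, after the study's methods. Cells were normalized to 10000 and reduced to 25 components on 2000 variable genes, without the 8 members and the V, D and J segment genes of antigen receptors. Cell cycle scores were regressed out before the components, and batch was corrected with a reimplementation of Harmony. Clusters were made by the Louvain method (resolution 0.6, igraph 0.11.9) and named from fixed markers. Depth per library was 77132398 to 176233225 UMIs. Scrublet ran per library (scanpy 1.11.5), it marked almost no cell in 2 of them, and no doublets were removed.

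UMIs of a class were summed per treatment pool (8 pools, with the vaccine and each antibody as terms of 1 fit) or per library (16 libraries, for preparation and antibody pairs; 8 Percoll libraries with library as a block, for clones), over samples with at least 10 cells. edgeR 4.0.16 (TMM, filterByExpr, quasi-likelihood F test, Benjamini-Hochberg over all genes tested) was used in R 4.3.3, with DESeq2 1.42.0 as an alternative. A gene was called at an adjusted p under 0.05 and an absolute log2 fold change over 0.5, and SE is the log2 fold change over the square root of F. The scripts were tested on simulated counts of the PancVAX comparison: at a log2 change of 1, 100% of changed genes were recovered in CD8+ T cells (10951 genes) and 87% in NK cells (3793 genes). Each treatment is 1 pool, and p-values of the fits over pools rest on the spread between pools that differ in the other agents. Those over 16 libraries, for preparation and antibody pairs, rest on how the difference between whole-tumor and Percoll libraries varied over treatments. Those for clones rest on how the difference between expanded and single cells varied over Percoll libraries.

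Named are the 8 members in every comparison, members of the 3 lists that passed, and the 3 genes most like each member (log2 CPM, pseudocount 1, mean of at least 20 CPM). Members, lists and tests were chosen with earlier results of these data known. Alternatives were the tool, the low-count filter, 16 libraries, each preparation, each pool or library left out, cell limits, doublets, cells with a myeloid UMI, transcript gates, clustering and clone size. Replicate numbers 1 and 2 stand for the whole-tumor and Percoll libraries, so the preparation term is the block.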

Additional observations from a re-analysis of the deposited data

Results flagged for a closer look

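In 118 groups of 4 pools or 8 libraries, 5 had a sample that stood apart by Dixon's test, where chance gives about 1 in 20. Ctla4 in exhausted-like CD8+ cells of the PancVAX pool was at 192 CPM, against 269 to 283 CPM in the other pools with vaccine, which also had 1 or both antibodies. Havcr2 in effector-like CD4+ cells of the Anti-PD-1 pool was at 101 CPM on 27 UMIs, against 24.1 to 32.8 CPM in the other pools without vaccine, and no member was called for PancVAX in this class without that pool. Tigit in regulatory-like cells of the Anti-CTLA-4 pool was at 584 CPM, against 800.4 to 840.0 CPM. Cd244a in NK-like cells of the same pool was at 77.5 CPM on 20 UMIs, against 109 to 115 CPM. Ctla4 in CD8+ T cells of clones seen once was at 53.6 CPM in the Anti-PD-1 library, against 103 to 146 CPM in the other Percoll libraries.

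The PancVAX effect differed between classes for 5 receptor values, by a test chosen after the calls by class were seen. In cytotoxic-like minus exhausted-like CD8+ cells the difference of log2 fold changes was -2.26 ± 0.49 for Cd244a, -2.39 ± 0.20 for Cd160 and -1.54 ± 0.19 for Lag3 (edgeR adjusted p 0.0071, 4.4e-12 and 2.8e-07). The cytotoxic-like side of the Cd244a value rests on 2 to 13 UMIs per pool. The call of Cd244a within cytotoxic-like cells was lost without the Anti-PD-1 or the Isotype Control pool. In effector-like CD4+ minus regulatory-like cells it was -0.88 ± 0.15 for Ctla4 and -1.62 ± 0.31 for Lag3 (edgeR adjusted p 0.0013 and 0.0041). The share of cytotoxic-like cells and the number behind each pool moved with the same comparison, and their part was not tested.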

How the results depend on the processing

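Of 587 counts of called receptor genes under an alternative, 558 stayed within 1.5 times the count given. For most comparisons that count was 0, so the 558 say little about how stable the calls are. Of 321 values of a called gene 303 were still called, 18 kept their direction but lost the call, and 0 changed sign. The causes were not tested. In all CD8+ T cells the count stayed at 4 for PancVAX and 7 for expanded clones under each alternative that leaves out a pool or library. Leaving out pools or libraries gave 2 to 3 called for PancVAX in cytotoxic-like cells, 0 to 3 in effector-like CD4+ cells, 0 to 1 for anti-PD-1 in cytotoxic-like cells, 0 to 2 for preparation in cytotoxic-like and 0 to 1 in NK-like cells, and 0 to 1 for both antibodies added to PancVAX in exhausted-like and in regulatory-like cells; the other counts of 0 stayed 0. For PancVAX in effector-like CD4+ cells the count was 0 within Percoll libraries and 1 at a mitochondrial limit of 5%. Without the low-count filter it was 1 for anti-PD-1 in cytotoxic-like (Tigit, also 1 over 16 libraries) and effector-like CD4+ cells (Lag3), 1 for preparation in cytotoxic-like cells (Tigit), 1 for both antibodies added to PancVAX in exhausted-like (Ctla4) and 2 in regulatory-like cells (Lag3 and Tigit), and 1 for clones in exhausted-like cells (Cd244a). Without upper limits on genes and UMIs it was 2 for preparation in cytotoxic-like cells (Lag3 and Tigit), 1 in NK-like cells (Cd244a), and 1 for both antibodies added to PancVAX in exhausted-like cells (Tigit). With cells holding a myeloid UMI removed it was 2 for preparation in cytotoxic-like (Lag3 and Tigit) and 1 in effector-like CD4+ cells (Tigit), and with the members among the clustering genes 1 in the latter (Ctla4). The share of all genes called under each of these alternatives is not given here. The counts above can therefore not be set beside such a share and are not read as results about the members. The difference in the share of CD8+ T cells with both targets was -9.95 points unthinned and -2.87 to -1.12 points with a pool left out. Replicate numbers mark the preparation; leaving out this block from the antibody pairs changed no count of calls.

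The precision is limited by the number of cells: NK-like and regulatory-like sums hold few UMIs of the rarer genes, cytotoxic-like cells were few without the vaccine, and each treatment combination is 1 pool. Batch and preparation cannot be told apart.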
